A study of Zea mays with 18 samples.

Results

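The 5 genes described here, nad3, nad4L, nad4, nad7 and nad9, are features of the maize mitochondrial genome that encode subunits of NADH dehydrogenase, the respiratory complex I. They were chosen by their identifiers in the count tables (ZeamMp093, ZeamMp012, ZeamMp032, ZeamMp086 and ZeamMp036), are 5 of 46430 features counted, and belong to 30 named protein-coding genes among 208 features of that genome. Reads were counted in 18 RNA-seq libraries of maize endosperm cut out by laser from kernels 19 days after pollination, on field-grown, selfed plants in the W22 background. The libraries form 6 groups of 3 biological replicates, which join a compartment, aleurone (the outer cell layer) or starchy endosperm (the reserve-filled cells within), and a genotype at R1, the locus of a transcription factor for anthocyanin pigment. The genotypes are R1-g, which the series treats as wild type, R1-sc and r1-m3. All groups share that background, and each library began with 5 ng of captured RNA that was amplified before sequencing.

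Complex I takes electrons from NADH, passes them to ubiquinone and pumps protons across the inner mitochondrial membrane. It has an arm in the membrane, to which nad3, nad4L and nad4 contribute, and an arm in the matrix, to which nad7 and nad9 contribute, while most other subunits come from nuclear genes. The plant nad4 and nad7 transcripts carry group II introns, which nuclear-encoded factors help to remove, and several maize kernel mutants have defects in splicing or editing of nad transcripts. The aleurone stays alive in the mature grain, whereas the starchy endosperm fills with reserves and dies.

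Feature totals ranged from 12.5 to 20.4 M counts (M, mega-counts) per library. Replicate 3 of r1-m3 aleurone held every one of 490 features with at least 200 counts in replicate 1 or 2 and 0 in its partner, against 54.3% to 69.4% in the other aleurone groups, and 0 features with 200 counts or more were found there alone. By the same measures, replicates 1 and 2 of that group held 134 of 134 and 164 of 164 such features, with 0 found there alone. Replicate 3 correlated with replicates 1 and 2 at r = 0.851 and 0.885 (log2 counts per M), and these 2 with each other at 0.585. The values of replicate 3 are shown, but that library was left out of every mean, test and count below. This leaves 17 libraries, 8 of aleurone and 9 of starchy endosperm. Of feature counts, 21.4 ± 3.51% fell on mitochondrial ribosomal RNA in aleurone (SD, n = 8) and 9.69 ± 1.29% in starchy endosperm (SD, n = 9). The 30 named mitochondrial protein-coding genes took 1.22 ± 0.123% and 0.348 ± 0.0614%, and reads outside annotated features took 10.02 ± 0.878% and 7.55 ± 0.272% of the table totals. The part of these differences in the results below was not tested. The labelled compartments could not be checked against markers, because 0 of 22 marker symbols were paired with a feature.

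Both called genes, nad3 of the membrane arm and nad7 of the matrix arm, were higher in the aleurone than in the starchy endosperm over the 3 genotypes, with log2 fold changes of 2.32 and 2.05. In the same edgeR comparison, 20.9% of all 19111 features tested were called higher in the aleurone and 34.3% in either direction. The mean levels of nad9, nad4L and nad4 were also higher in the aleurone, without passing the test across all features. Levels are counts per M counts (CPM) after TMM scaling, which evens out libraries whose totals rest on a few abundant features, are not divided by gene length and so are compared between libraries and not between genes. In bulk RNA, a larger number of mitochondria and more transcript in each cannot be told apart.

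nad3 encodes a small membrane subunit near the junction of both arms. In the aleurone it stood at 62.1, 48.8 and 32.7 CPM in R1-g, at 3.63, 35.1 and 34.4 CPM in R1-sc, and at 30.03 and 51.3 CPM in r1-m3, with 40.9 CPM in the library left out. In the starchy endosperm it stood at 7.57, 11.1 and 5.40 CPM in R1-g, 4.40, 1.68 and 9.49 CPM in R1-sc, and 4.04, 6.46 and 16.9 CPM in r1-m3. Of the 8 aleurone libraries, 7 lay above every starchy endosperm library, and R1-sc aleurone replicate 1, with 82 counts where its group's other libraries had 648 and 734, lay among them.

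nad4L, another small membrane subunit, had aleurone levels of 14.9, 17.6 and 22.2 CPM in R1-g, 8.73, 4.76 and 10.2 CPM in R1-sc, and 18.2 and 16.8 CPM in r1-m3, with 18.8 CPM in the library left out. Starchy endosperm levels were 2.15, 11.9 and 4.36 CPM in R1-g, 5.07, 1.68 and 7.80 CPM in R1-sc, and 10.3, 1.15 and 13.2 CPM in r1-m3. The compartments overlapped: the 3 R1-sc aleurone libraries lay inside the starchy endosperm range, and the other 5 lay above it.

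nad4, a large membrane subunit of the proton-pumping type, had aleurone levels of 178, 171 and 272 CPM in R1-g, 151, 148 and 268 CPM in R1-sc, and 141 and 209 CPM in r1-m3, with 172 CPM in the library left out. Starchy endosperm levels were 89.2, 112 and 96.4 CPM in R1-g, 101, 92.1 and 148 CPM in R1-sc, and 122.9, 196 and 133 CPM in r1-m3. Only 3 aleurone libraries lay above all of the starchy endosperm, where r1-m3 replicate 2 was the highest.

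nad7, a matrix-arm subunit close to the ubiquinone site, had aleurone levels of 46.4, 34.5 and 55.9 CPM in R1-g, 38.4, 36.4 and 49.1 CPM in R1-sc, and 26.1 and 60.7 CPM in r1-m3, with 33.6 CPM in the library left out. Its starchy endosperm levels were 8.26, 10.2 and 12.5 CPM in R1-g, 7.27, 6.96 and 15.5 CPM in R1-sc, and 9.38, 14.3 and 9.98 CPM in r1-m3. Here the compartments did not overlap: the lowest aleurone library, r1-m3 replicate 1, lay above the highest starchy endosperm library, R1-sc replicate 3. Of all 19111 features tested, 4.68% were separated in this way with the aleurone higher, and nad7 was the 1 nad gene among them; of the 30 named mitochondrial genes, 26.7% were separated in one direction or the other.

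nad9, a further matrix-arm subunit, had aleurone levels of 15.3, 16.2 and 17.1 CPM in R1-g, 18.7, 28.5 and 8.72 CPM in R1-sc, and 13.3 and 14.3 CPM in r1-m3, with 12.3 CPM in the library left out. In the starchy endosperm its levels were 3.70, 5.41 and 6.16 CPM in R1-g, 2.87, 2.81 and 9.21 CPM in R1-sc, and 5.08, 2.86 and 2.75 CPM in r1-m3. The groups met only in R1-sc, where aleurone replicate 3 lay below starchy endosperm replicate 3.

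**Figure D1:**
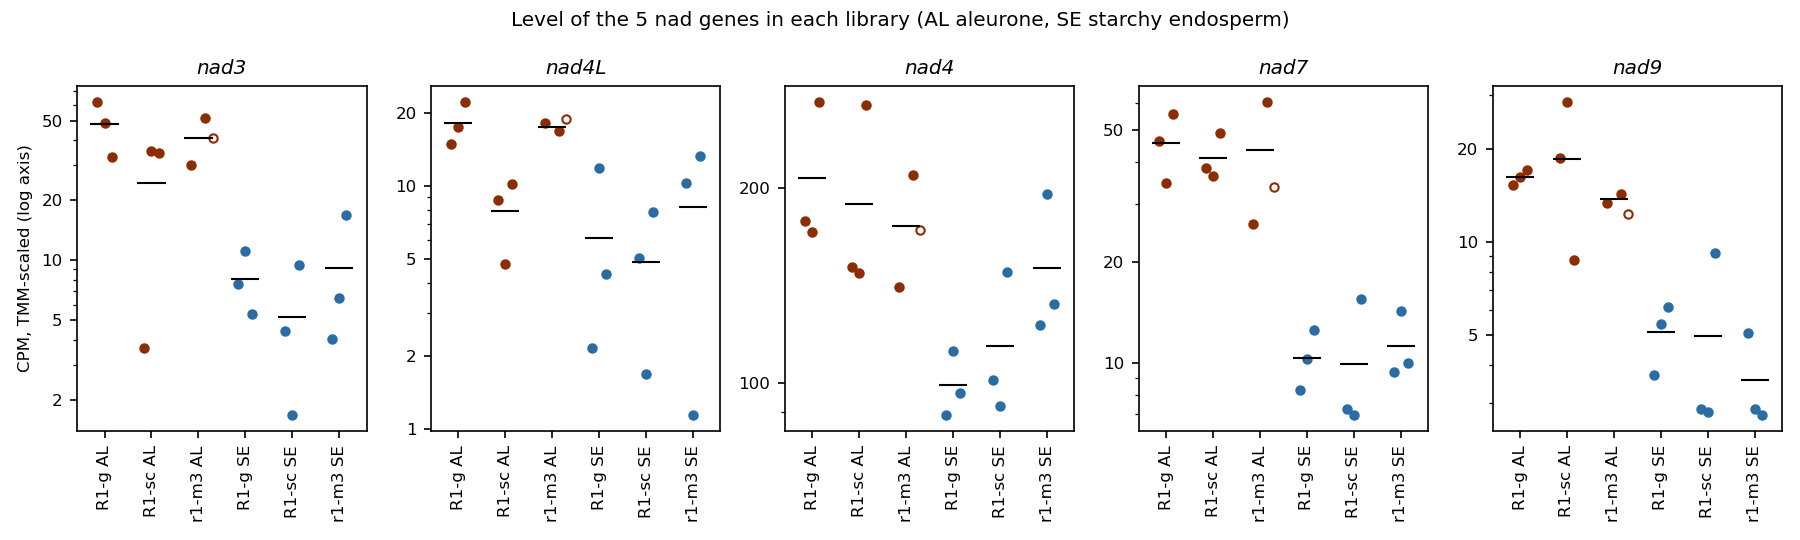
CPM of each gene (log axis) in the 6 groups, with a point per library and a line at the group mean; brown is aleurone, blue is starchy endosperm, and the open circle is the r1-m3 aleurone library left out of the mean. For nad7 the lowest aleurone point, 26.1 CPM, lies above the highest starchy endosperm point, 15.5 CPM, and for the other 4 genes the compartments overlap.

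Averaged over the 3 genotypes, edgeR's quasi-likelihood test called 2 of the 5 genes, both higher in the aleurone, where 20.9% of all 19111 features tested were called higher and 34.3% were called in either direction. nad3 had a log2 fold change of 2.32 (SE 0.737, adjusted p = 0.0161) and nad7 of 2.05 (SE 0.617, adjusted p = 0.0118), where Benjamini-Hochberg adjustment ran over all features. nad9 had 1.84 (SE 0.909, adjusted p = 0.119), nad4L 1.12 (SE 0.933, adjusted p = 0.396) and nad4 0.67 (SE 0.309, adjusted p = 0.0952) in the same edgeR fit. The median of the 5 was 1.84, beside 0.57 over all features tested. Without r1-m3 aleurone replicate 2, which leaves 1 library in that group, edgeR called 0 of the 5 (adjusted p = 0.0635 for nad3 and 0.0718 for nad7). DESeq2 called all 5 higher in this comparison, where it called 22.9% of all features higher and 37.4% in either direction.

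The spread between libraries was wide. edgeR's biological coefficient of variation was 0.609 for nad4, 0.843 for nad7, 0.963 for nad3, 1.10 for nad9 and 1.15 for nad4L, against a common value of 1.45 over all features. nad4 thus had the smallest error and the smallest fold change, while nad3, with a wider spread, had the largest fold change. An exact permutation of the libraries within genotypes, added after the data had been seen and adjusted over the 30 named mitochondrial genes, was run on the CPM values of each gene. The ratio of mean CPM, aleurone over starchy endosperm, was 5.00 for nad3 (adjusted p = 0.00132), 4.14 for nad7 (0.000625), 3.64 for nad9 (0.001), 2.21 for nad4L (0.00375) and 1.59 for nad4 (0.00813), each by that two-sided exact permutation test. All 5 thus passed that test, as did 76.7% of the 30 genes in that direction, 5 genes included.

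In single genotypes the direction was the same for every gene, but 0 of the 15 differences passed edgeR's test, and 0 had an unadjusted p under 0.05. In R1-g, where 7.26% of all features were called, the log2 fold changes of the 5 genes ranged from 1.06 to 2.57 (lowest edgeR adjusted p = 0.195). In R1-sc, where 10.2% were called, they ranged from 0.70 to 2.23 (lowest edgeR adjusted p = 0.177), and in r1-m3, where 4.6% were called, from 0.22 to 2.16 (lowest edgeR adjusted p = 0.289). DESeq2 called 4 of the 5 genes higher for R1-g, where it called 11.0% of all features higher and 19.4% in either direction. It called 3 for R1-sc (14.9% higher, 24.9% in either direction) and 2 for r1-m3 (9.69% and 15.8%). By the libraries themselves, the compartments did not overlap for any of the 5 genes in R1-g, where 14.1% of all features were separated with the aleurone higher. In R1-sc this held for nad7 alone (14.3% of all features), and in r1-m3, with 2 aleurone libraries, for all but nad4 (27.7%). The nad4 difference in r1-m3 was 0.22 on the log2 scale and turned to -0.087 without aleurone replicate 2.

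**Figure D2:**
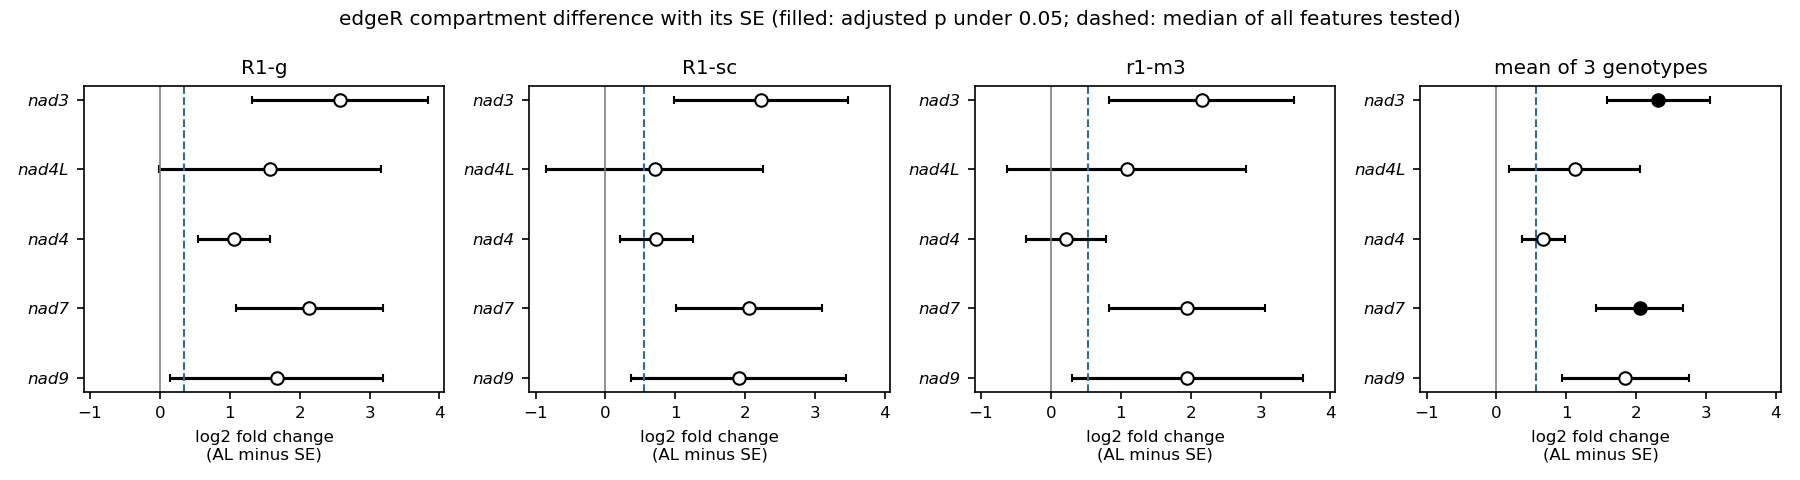
Log2 fold change of each gene, aleurone minus starchy endosperm, from the edgeR fit, in each genotype and as the mean of the 3; bars are 1 SE, filled points passed the adjusted p threshold of 0.05, and the dashed line is the median of all features tested. All points lie above 0, the bars of single genotypes are wide, and only nad3 (2.32) and nad7 (2.05) are filled, in the mean of the genotypes.

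The size of every compartment difference depended on the scaling. TMM factors were 1.20 to 1.68 in the aleurone libraries and 0.683 to 0.837 in the starchy endosperm libraries, so that CPM of plain feature totals gave ratios of 9.42 for nad3, 7.79 for nad7, 6.87 for nad9, 4.18 for nad4L and 2.96 for nad4. On that scale nad4, nad7 and nad9 did not overlap between compartments, as was true of 70.0% of the 30 mitochondrial genes, and the exact permutation test called all 5 higher, with 83.3% of the 30. Without TMM factors the median over all features moved from 0.57 to 1.46 and edgeR called 4 of the 5 higher, all but nad4L, where it called 30.5% of all features higher and 39.6% in either direction. The aleurone stood higher on both scales for each of the 5 genes.

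A scale that needs no scaling between nuclear and mitochondrial RNA is the share of each gene in the counts of the 30 named mitochondrial protein-coding genes. On it nad3, nad7 and nad9 took a larger share in the aleurone, and nad4 and nad4L did not pass the test. Whether the genes differed from each other in this was not tested. Each was tested by a two-sided exact permutation within genotypes over 4000 relabellings, adjusted over the 30 genes, of which 36.7% were called higher in the aleurone.

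For nad7 the aleurone shares were 0.495%, 0.387% and 0.596% in R1-g, 0.436%, 0.416% and 0.501% in R1-sc, and 0.387% and 0.764% in r1-m3. In the starchy endosperm they were 0.205%, 0.236% and 0.321% in R1-g, 0.144%, 0.186% and 0.265% in R1-sc, and 0.183%, 0.283% and 0.201% in r1-m3. The compartments did not overlap, as was true of 20.0% of the 30 genes in either direction. The means were 0.498 ± 0.128% (SD, n = 8) and 0.225 ± 0.0562% (SD, n = 9; exact permutation p = 0.00025, the smallest that 4000 relabellings give, adjusted p = 0.00125).

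The share of nad3 was 0.430 ± 0.200% in aleurone and 0.158 ± 0.0930% in starchy endosperm (SD, n = 8 and 9; exact permutation p = 0.0025, adjusted p = 0.00682). Its lowest share of all 17 libraries, 0.0412%, was in R1-sc aleurone replicate 1, and its highest starchy endosperm share, 0.340%, was in r1-m3 replicate 3. The share of nad9 was 0.191 ± 0.0657% and 0.0972 ± 0.0413% (SD, n = 8 and 9; exact permutation p = 0.00375, adjusted p = 0.008), with an overlap through R1-sc aleurone replicate 3 at 0.0890%. All 3 calls held without any single library.

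For nad4 the share was 2.20 ± 0.486% in aleurone and 2.58 ± 0.528% in starchy endosperm (SD, n = 8 and 9; exact permutation p = 0.175, adjusted p = 0.250), so that the aleurone mean was the lower one on this scale. nad4L had 0.166 ± 0.0750% and 0.134 ± 0.0937% (SD, n = 8 and 9; exact permutation p = 0.339, adjusted p = 0.407). The summed share of the 5 genes was 3.48 ± 0.655% in aleurone and 3.19 ± 0.574% in starchy endosperm, a difference smaller than either SD.

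**Figure D3:**
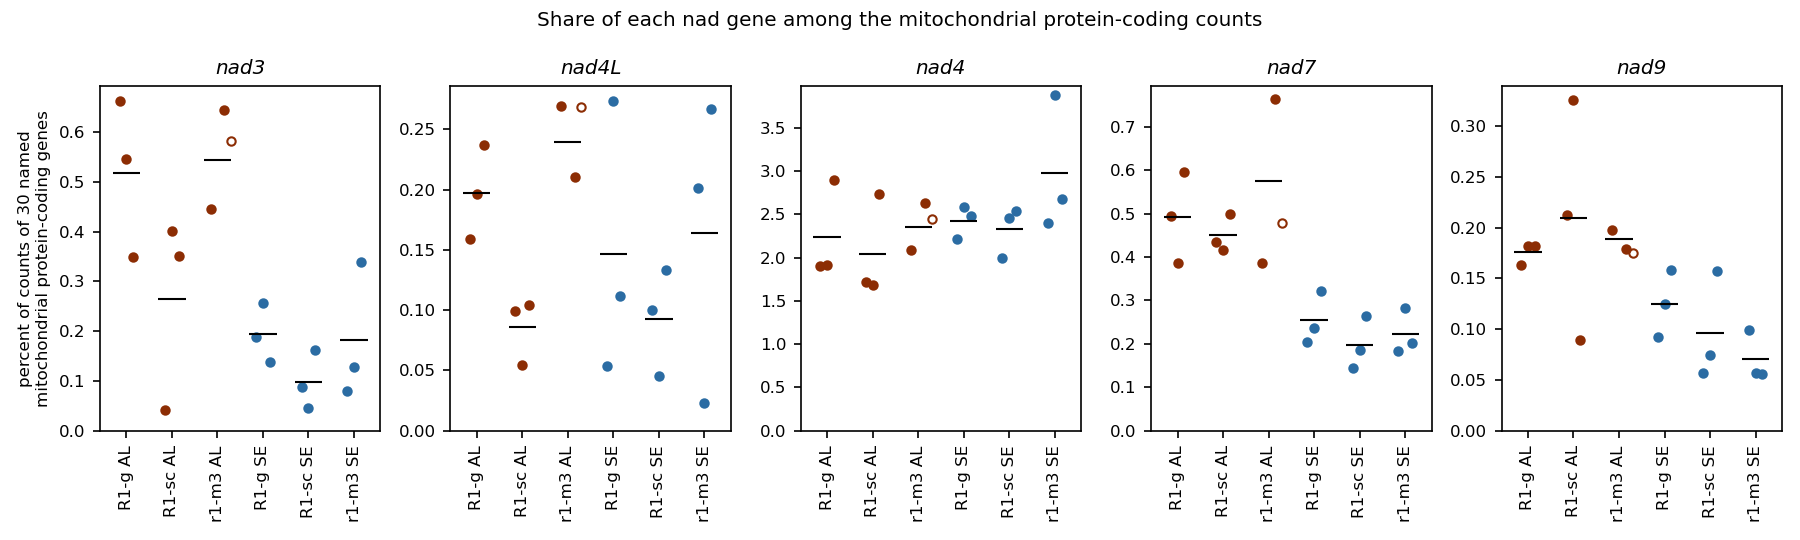
Share of each gene in the counts of the 30 named mitochondrial protein-coding genes, in percent, by group, with a point per library, a line at the group mean and an open circle for the library left out of the mean. The nad7 shares of the compartments do not overlap (lowest aleurone 0.387%, highest starchy endosperm 0.321%), while those of nad4 and nad4L overlap widely.

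Among the 30 genes ordered by the ratio of their mean shares, aleurone over starchy endosperm, nad3 ranked 5, nad7 10, nad9 11, nad4L 14 and nad4 22. The genes called with a larger share in the aleurone were these 3 nad genes and 8 others, and 4 genes, cob, rps2B, cox2 and atp4, were called with a smaller one. The membrane-arm genes thus held the highest and the lowest ranks of the 5, and both matrix-arm genes lay between.

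**Figure D4:**
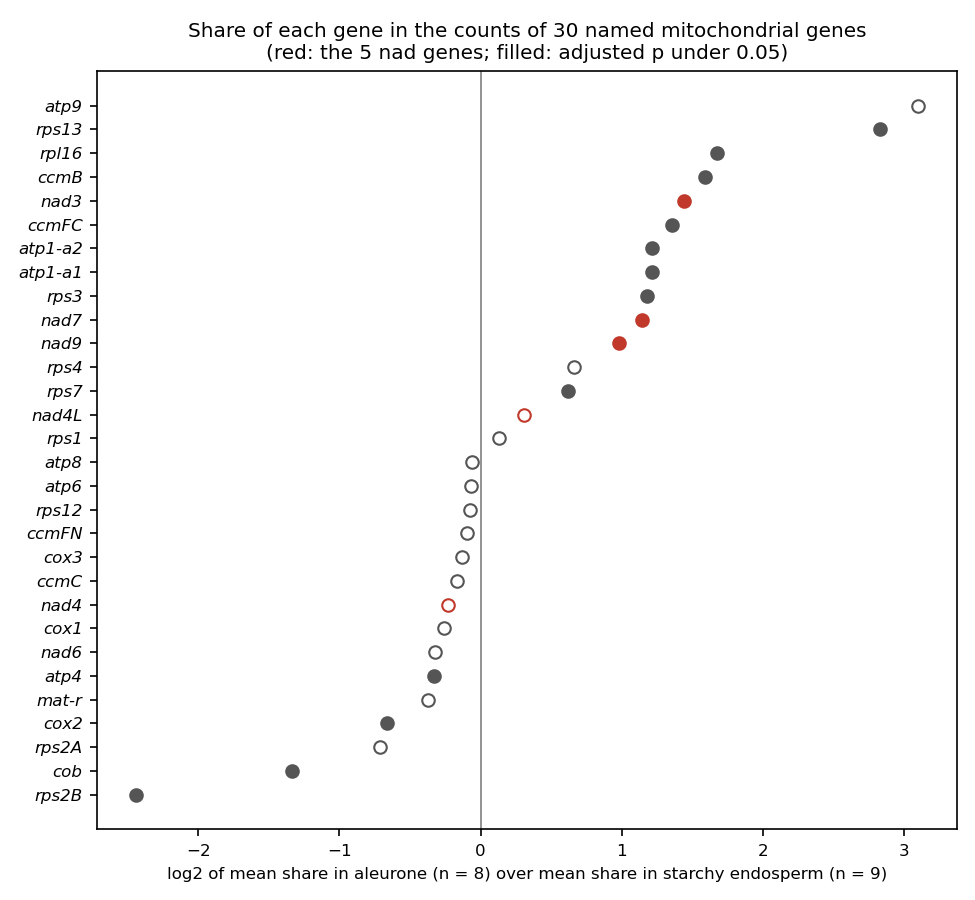
Log2 ratio of the mean share in the aleurone (n = 8) over that in the starchy endosperm (n = 9) for the 30 named mitochondrial protein-coding genes, in order; red points are the 5 nad genes and filled points passed the exact permutation test after adjustment over the 30 genes. nad3, nad7 and nad9 are filled to the right of 0, and nad4L and nad4 are open on either side of it.

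The mean make-up of the counts of the 5 genes differed between compartments, which is a description and was not tested. The percentages of this make-up add up to 100, so a lower part for nad4 and higher parts for the other genes are not separate results. nad4 made up 63.0 ± 5.83% of them in the aleurone (56.2% to 72.4%, SD, n = 8) and 80.7 ± 5.09% in the starchy endosperm (74.4% to 88.8%, SD, n = 9), with no overlap. nad7 made up 14.3 ± 2.18% and 7.05 ± 1.34%, again with no overlap, and nad3 12.2 ± 5.64% and 4.89 ± 2.59%. For nad9 the values were 5.85 ± 2.82% and 3.11 ± 1.28%, and for nad4L 4.71 ± 1.91% and 4.23 ± 2.68%. Gene length cancels when a ratio of a pair of genes is compared between libraries: there were 22.9 ± 3.97 nad7 counts per 100 nad4 counts in aleurone (18.3 to 29.1) and 8.78 ± 1.93 in starchy endosperm (7.20 to 12.97). nad7 thus separated the compartments also when set against nad4. The counts per 100 nad4 counts overlapped for nad3 (20.0 ± 10.4 and 6.21 ± 3.56), nad9 (9.46 ± 4.82 and 3.90 ± 1.72) and nad4L (7.57 ± 3.23 and 5.40 ± 3.58). Both nad4 and nad7 have introns, and whether reads from introns were counted is not given in the sources used here.

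**Figure D5:**
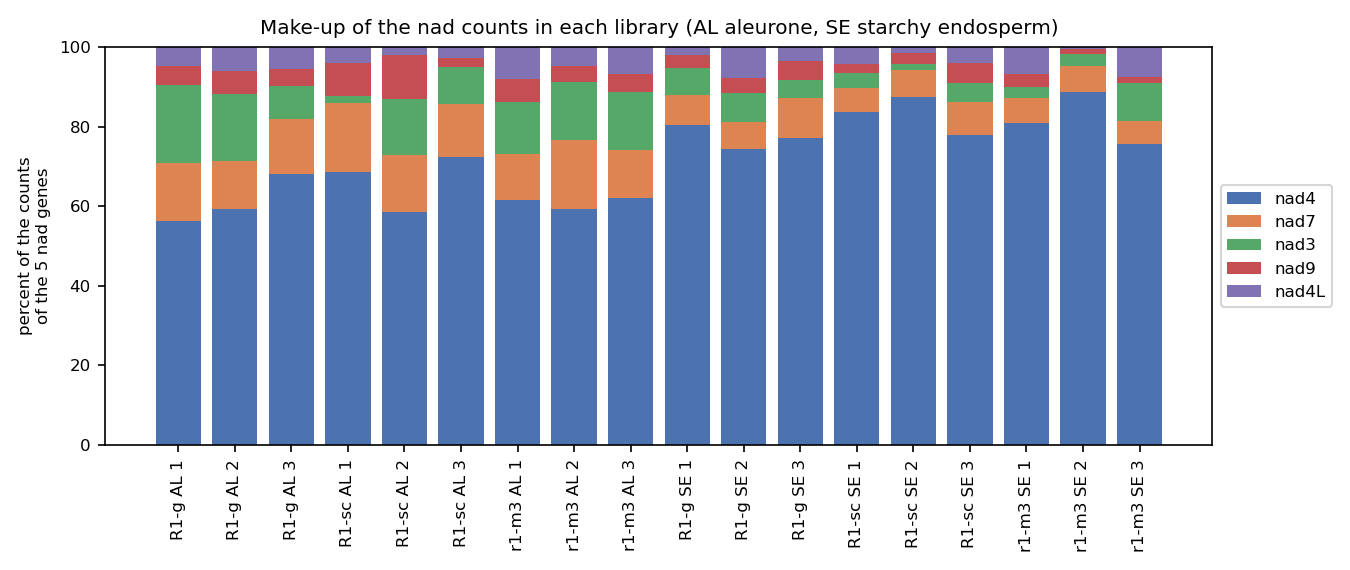
Make-up of the counts of the 5 nad genes in each of the 18 libraries, in percent, not divided by gene length; r1-m3 AL 3 is the library left out of the means. nad4 takes 56.2% to 72.4% in the 8 aleurone libraries used and 74.4% to 88.8% in starchy endosperm.

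Between genotypes, 0 of 30 values (5 genes in 6 comparisons) passed either edgeR's or DESeq2's test, and 0 had an unadjusted p under 0.05 by either tool. The edgeR log2 fold changes ranged from -1.20 to 1.14 with SEs of 0.516 to 1.73, and the lowest adjusted p was 0.825. edgeR called few features of any kind in these comparisons: 0.283% between R1-sc and R1-g, 0.199% between r1-m3 and R1-g and 0.0733% between r1-m3 and R1-sc in aleurone, and 0.0262%, 0.0209% and 0.0262% in starchy endosperm. DESeq2 called more, in the same order 6.47%, 3.24% and 3.61% in aleurone and 2.03%, 2.12% and 3.07% in starchy endosperm. With SEs of this size, differences of a few fold between genotypes were not detectable for nad3, nad4L, nad7 and nad9. For nad4 the SEs were smaller (0.516 to 0.580), and whether a difference of that size would have passed was not tested.

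By group means, R1-g aleurone was the highest for nad3 (47.9 ± 14.7 CPM), nad4 (207 ± 56.3), nad4L (18.2 ± 3.71) and nad7 (45.6 ± 10.7), and R1-sc aleurone for nad9 (18.6 ± 9.90; SD, n = 3 each). r1-m3 aleurone had 40.7 ± 15.1 CPM of nad3, 175 ± 48.2 of nad4, 17.5 ± 0.999 of nad4L, 43.4 ± 24.5 of nad7 and 13.8 ± 0.660 of nad9 (SD, n = 2). Most neighbours in the order of the 6 means differed by less than the larger of their SDs. The exceptions were r1-m3 aleurone over r1-m3 starchy endosperm for nad4L, R1-sc aleurone over r1-m3 starchy endosperm for nad7, and, for nad9, R1-g over r1-m3 aleurone and r1-m3 aleurone over R1-g starchy endosperm. For nad3 and nad4 no neighbours were so separated.

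The largest genotype value was in nad4L, whose R1-sc aleurone mean was 7.90 ± 2.82 CPM where R1-g aleurone had 18.2 ± 3.71 CPM (SD, n = 3 each). All 3 R1-sc libraries lay below all 3 of R1-g, with a log2 fold change of -1.20 (SE 1.57, edgeR adjusted p = 0.843). nad4L in r1-m3 aleurone also lay above R1-sc without overlap, with a log2 fold change of 1.14 (SE 1.71, edgeR adjusted p = 0.970). Of the 30 genotype comparisons of the 5 genes, 4 did not overlap: these, nad9 lower in r1-m3 than in R1-g aleurone, and nad4 higher in r1-m3 than in R1-g starchy endosperm. The share of all features without overlap was 9.3% for R1-sc against R1-g, 18.7% for r1-m3 against R1-g and 19.3% for r1-m3 against R1-sc in aleurone, and in the same order 10.6%, 10.9% and 9.23% in starchy endosperm.

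The compartment difference was also compared between genotypes. For the 5 genes, 0 of 15 interaction values passed edgeR's or DESeq2's test, and 0 had an unadjusted p under 0.05 by either tool. The values ranged from -0.87 to 0.38 on the log2 scale with SEs of 0.729 to 2.33 (lowest edgeR adjusted p = 0.981), where edgeR called 0.12%, 0.0785% and 0.00523% of all features and DESeq2 4.26%, 2.85% and 3.65%.

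In the reference order of the mitochondrial genome nad3 lies next to rps12, which encodes a ribosomal protein, and in plants they are known to be transcribed together. rps12 had 302 ± 81.1 CPM in aleurone and 170 ± 32.5 CPM in starchy endosperm (SD, n = 8 and 9), with a log2 fold change of 0.79 (SE 0.277, edgeR adjusted p = 0.0283), against 2.32 for nad3. There were 12.6 ± 5.73 nad3 counts per 100 rps12 counts in aleurone (1.37 to 19.96) and 4.38 ± 2.63 in starchy endosperm (1.503 to 9.38). R1-sc aleurone replicate 1 had the lowest ratio of all, with 82 nad3 counts beside 5966 of rps12, so that its low nad3 was not matched in the neighbouring gene. Whether strand was used in counting is not given in the sources used here, so sense and antisense reads of these genes cannot be told apart.

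Of the other mitochondrial complex I genes, nad6, a membrane subunit, was measured at 0.27 to 12.4 CPM in aleurone and 0.38 to 3.69 CPM in starchy endosperm, with a log2 fold change of 0.34 (SE 1.28, edgeR adjusted p = 0.962); nad1, nad2 and nad5 were not analysed here. Among the genes of the later respiratory complexes in the mean of the genotypes, cob of complex III was not called (log2 fold change -0.50). Of 3 complex IV genes, cox1 (0.63) and cox3 (0.76) were called higher in the aleurone and 0 lower. Of 6 complex V genes, 3 were called higher, atp4 (0.56) and the copies atp1-a1 (2.08) and atp1-a2 (2.09). Reads that aligned to both copies were not counted, and whether the values of these copies are separate results was not tested. The log2 fold changes of nad3 and nad7 were close to those of the atp1 copies and above those of cox1, cox3 and atp4; these differences between genes were not tested.

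All 4 genes for cytochrome c maturation were called higher (log2 fold changes 0.74 to 2.38), as were 6 of 9 ribosomal protein genes, while rps2B was called lower (-1.56) and the maturase gene mat-r was not called (0.50). The plastid NDH complex is related to complex I and encoded partly in the plastid genome. Of its 12 features, 7 were tested, and 0 were called by edgeR, with 0 at an unadjusted p under 0.05 and a median log2 fold change of -0.59.

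Across the 17 libraries, the 10 pairs of the 5 genes had Pearson correlations of log2 CPM from 0.471 to 0.866 (median 0.656). Within the 8 aleurone libraries they ran from -0.536 to 0.796 (median 0.206, 4 below 0), and within the 9 starchy endosperm libraries from -0.0024 to 0.729 (median 0.406). The pair nad4 and nad7 was the closest in both compartments, at 0.796 in aleurone and 0.729 in starchy endosperm. nad4 and nad9 had the lowest value in the aleurone, -0.536. These are descriptions over libraries that share the compartment difference and the scaling.

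Among 68 other named organelle protein-coding genes, the closest in pattern over the 17 libraries was atp4 for nad3 (r = 0.847), cox3 for nad4L (0.738), nad7 for nad4 (0.837), atp1-a1 for nad7 (0.941) and nad7 for nad9 (0.866). Within the aleurone the values were 0.825 for nad3 with atp4, -0.169 for nad4L with cox3, 0.796 for nad4 with nad7, 0.223 for nad7 with atp1-a1 and -0.208 for nad9 with nad7 (n = 8). Within the starchy endosperm, the same pairs had 0.486, 0.841, 0.729, 0.539 and 0.589 (n = 9). Of these 5 pairs, nad4 with nad7 had the most even values in both compartments, nad4L with cox3 had its higher value in the starchy endosperm, and nad3 with atp4 had its higher value in the aleurone. The closest of all 19110 other features to each of the 5 genes were nuclear gene models that the tables used here do not name, with r from 0.895 to 0.957. Each was picked as the highest of 19110 values over the same 17 libraries, so a high r follows in part from the choice. The values within compartments come from those libraries too and are descriptions. Within the aleurone these features had 0.903 for nad3, 0.899 for nad4L, 0.795 for nad4, 0.836 for nad7 and 0.444 for nad9. Within the starchy endosperm they had 0.821 for nad3, 0.853 for nad4L, 0.791 for nad4 and 0.832 for nad9. The feature closest to nad7 did not vary there, so it has no value.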

How the data were processed

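Read counts per feature were analysed as deposited, without normalization by the authors. The submitters' processing notes name HTSeq 0.11.2, HISAT2, Trimmomatic 0.39, SAMtools, DESeq2 and FastQC, and the build B73 RefGen_v4; further settings are not given in the sources used here. Of the reads in each table, 66.9% to 75.0% were given to no feature (5 totals, left out), 42.2% to 55.0% because they aligned to several places, so copies of a gene elsewhere in the genome lower its count. Since cDNA was amplified and no molecular identifiers are described, reads are not independent molecules. Names and gene order came from a RefSeq gene table (assembly NAM-5.0 of B73), matched by locus tag (365 features named, 0 nuclear gene models).

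Tests used R 4.3.3 with edgeR 4.0.16, whose filterByExpr over 6 groups kept 19111 features, all 5 nad genes among them, and a robust quasi-likelihood fit of 17 libraries with TMM scaling gave 13 contrasts, adjusted by Benjamini and Hochberg and called under 0.05. The SE is the log2 fold change divided by the square root of F. Correlations used log2 CPM with a prior count of 2. Shares were compared by exact permutation within genotypes. Alternatives were DESeq2 1.42.0, its size factors, no TMM factors, scaling from nuclear gene models, no filter, all 18 libraries, the groups compared alone, a replicate block, and leaving out each library. The scripts were tested on simulated data, for edgeR with planted changes larger than the ratios of TMM-scaled CPM reported here. That check does not cover differences of the size of these ratios. The members and gene lists were chosen with earlier results of these data known. The rule named the 5 genes, the other mitochondrial respiratory, cytochrome c maturation and ribosomal protein genes, the plastid NDH genes and the closest features by correlation.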

Additional observations from a re-analysis of the deposited data

How the results depend on the processing

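For the number of the 5 genes called between compartments, DESeq2 gave 4 for R1-g, 3 for R1-sc, 2 for r1-m3 and 5 in the mean of the genotypes, where edgeR gave 0, 0, 0 and 2. Library totals without TMM factors gave 1, 1, 0 and 4, where 1591, 2188, 1260 and 7572 of 19111 features were called. DESeq2's size factors within edgeR gave 3 in the mean of the genotypes, nad4 added (edgeR adjusted p = 0.0392). With those factors 6696 of 19111 features were called, 4284 of them higher in the aleurone. Leaving out each library in turn gave 0 to 2 in the mean of the genotypes, with 0 only without r1-m3 aleurone replicate 2, and 0 in each single genotype; the log2 fold change of nad4 in r1-m3 then ranged from -0.087, a reversal and without that library, to 0.48. In the other 9 comparisons every alternative gave 0. The number of the 5 genes with a different share was 3 under every alternative tried. All 18 libraries gave 2 in the mean of the genotypes (lowest edgeR adjusted p = 0.00454), where 7341 of 18028 features were called, 4417 of them higher. Same-numbered libraries did not deviate together from their group means (r from -0.0811 to 0.0226). With so few libraries per group and a wide spread, this gave no sign of pairing by number but cannot exclude it. A replicate block in the edgeR fit gave 2 of the 5 in the mean of the genotypes (lowest edgeR adjusted p = 0.0198). There 5647 of 19111 features were called, 3329 of them higher in the aleurone.

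Over all features, DESeq2 called 3717 for R1-g, 4759 for R1-sc and 3015 for r1-m3 where edgeR called 1387, 1942 and 880, out of 19111 each. All 18 libraries called 1788 of 18028 in r1-m3. No filter on low counts, with 25617 features tested in each comparison, called 1389 there. Without TMM factors, 1148 of 1591 calls in R1-g were higher in the aleurone, against 673 of 1387. In R1-sc 1703 of 2188 were higher, against 1114 of 1942, and in r1-m3 1097 of 1260, against 579 of 880. In the mean of the genotypes 5832 of 7572 were higher, against 3991 of 6550. Between genotypes in the aleurone DESeq2 called 1237, 619 and 690 features and no filter on low counts 308, 121 and 99, where edgeR called 54, 38 and 14. The groups compared alone gave 5, 0 and 3, out of 12635, 15415 and 15113 tested. In the starchy endosperm DESeq2 called 387, 405 and 586 and no filter 69, 73 and 121, where edgeR called 5, 4 and 5. For the interactions DESeq2 called 815, 544 and 697 and no filter 178, 113 and 94, where edgeR called 23, 15 and 1. Counts as low as 14 to 25 in single starchy endosperm libraries (nad3, nad4L and nad9) limit the precision of those genes.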
